A study of Rattus norvegicus with 6 samples.

Results

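The complement system of the rat PAIII tumor was described here through 9 mRNAs, chosen by name from the deposited table, which holds 17557 rows under 17030 gene symbols. The 9 are the C1q chain genes C1qa, C1qb and C1qc, the C1 protease gene C1s, the component genes C2 and C3, the alternative pathway genes Cfb and Cfd, and the receptor gene C5ar1. Each of the 9 was on a single row. PAIII is a transplantable, hormone-resistant prostate adenocarcinoma line, which was injected under the skin of the flank of immunologically intact Lobund-Wistar rats, 2 months old, from whose strain it came. Rats A1, A6 and A12 (digitoxin-treated, replicates 1, 2 and 3) received digitoxin, a cardiac glycoside, at 0.03 mg/kg each day into the peritoneum from day 10, and rats B5, B9 and B14 (controls, replicates 1, 2 and 3) received vehicle. All tumors were taken on day 40, and each library is the pooled RNA of 10 micropunches from viable regions of 1 tumor. By the study's design the sequenced controls came from rats with high serum IL-6 and CINC-1 and the treated rats from those with low levels, so the drug and the serum selection cannot be told apart in these samples.

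Complement is a cascade of blood and tissue proteins that marks surfaces for uptake and releases small attractant peptides. In the classical pathway C1q binds antibody or other targets, its protease C1r activates the protease C1s, and C1s cleaves C4 and C2. In the alternative pathway factor D, the product of Cfd, cleaves factor B, the product of Cfb, once it has bound C3b. Both pathways meet at C3, and C5ar1 is the receptor for the C5a peptide made further down. Liver is the main source of most components in plasma, macrophages are the usual source of C1q, and factor D, also called adipsin, is best known from fat cells.

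The values are FPKM, the fragments counted per kilobase of a transcript and scaled to the total of mapped fragments, so that levels of different genes can be set side by side per length. The sum of FPKM ran from 651322 to 1025231 per library, and the depth behind a value is unknown because reads were not used, and a 0 in the table is called listed at 0. Apart from complement, 2 libraries, A12 and B14, differed from the rest. Surfactant protein C mRNA (Sftpc), the defining product of alveolar type 2 cells, reached 63514 FPKM in A6, 35405 in A1, 24105 in B9 and 19188 in B5. B14 had Sftpc listed at 0, and A12 had 0.229 FPKM. The 8 lung alveolar markers summed to 17.5 FPKM in A12 and 25.2 FPKM in B14 against 27099 to 82627 FPKM elsewhere. All 6 libraries are labelled as tumor, and whether the 4 with surfactant mRNA hold lung tissue was not tested. The prostate markers Pbsn, Hoxb13 and Folh1 stayed under 1 FPKM in every library, whereas Tmprss2 ran from 7.69 to 34.1 FPKM, the epithelial markers Epcam from 208 to 525 and Krt18 from 106 to 241 FPKM, and Krt8 from 398 FPKM in A6 to 2095 FPKM in A12. Results are therefore given with and without A12 and B14. Groups follow the labels throughout, and no targeted gene checks them.

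The levels of the 9 mRNAs differed between members of the same pathway. In A12 and B14 the order of levels was led by C1qa, C1qb and C1qc and closed by Cfb, while in A1, A6 and B9 Cfb was the highest of the 9. C1s was the lowest of the 9 in A1, A6, B5 and B9. In the table as a whole, 59.4% of the 10749 rows averaging 1 FPKM or more had A12 and B14 both above or both below the other 4 libraries, and 6 of the 9 complement mRNAs did (C1qa, C1qb, C2, C3, Cfb and C5ar1), so such a split was about as frequent over all rows. C2, C3, Cfb and C5ar1 were higher in the 4 libraries, as were 29.3% of all rows, and C1qa and C1qb were lower there, as were 30.1%. C1qc, C1s and Cfd overlapped, C1qc only because B5 was above A12.

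**Figure D1:**
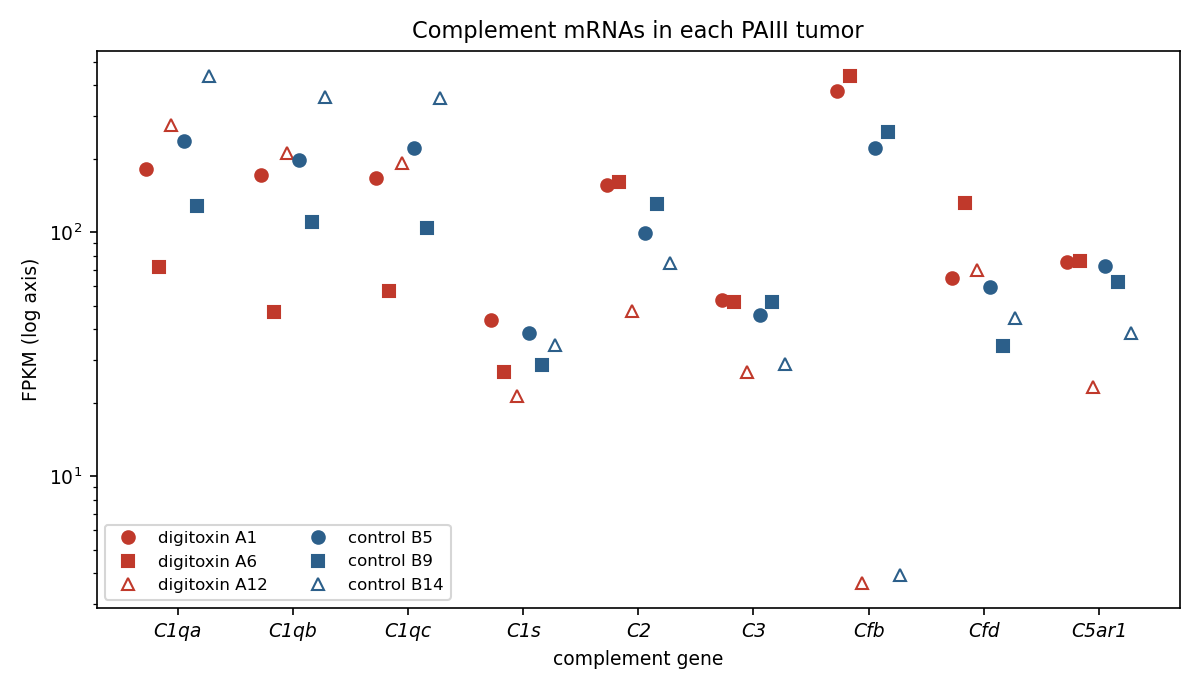
FPKM (log axis) of the 9 complement mRNAs in each of the 6 tumors, digitoxin-treated in red and control in blue. Open triangles are A12 and B14, where Cfb was at 3.66 and 3.92 FPKM while the other 4 tumors held 221 to 436 FPKM.

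The promoters of Cfd, C1qa, C1qb and C3 are shown to give the sequence at the starts of these genes, and they are the 4 of the 9 with a window in the RefSeq table used here. The windows, on the rat assembly GRCr8, were matched by symbol, and the 120 bases before the annotated start are given 5′ to 3′ on the strand of the gene. Capitals mark 2 motifs, CATAAAA, a variant of the TATA box, and TTGCNNAA, a core of C/EBP sites, each searched on both strands.
Cfd, GRCr8, chr7:10465497-10465616, minus strand: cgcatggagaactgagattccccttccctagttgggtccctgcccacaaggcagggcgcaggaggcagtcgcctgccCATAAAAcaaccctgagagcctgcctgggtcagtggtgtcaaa
C3, GRCr8, chr9:2201340-2201459, minus strand: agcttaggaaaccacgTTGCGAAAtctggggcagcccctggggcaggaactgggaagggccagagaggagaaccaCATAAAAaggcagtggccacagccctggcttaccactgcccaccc
C1qa, GRCr8, chr5:154419934-154420053, minus strand: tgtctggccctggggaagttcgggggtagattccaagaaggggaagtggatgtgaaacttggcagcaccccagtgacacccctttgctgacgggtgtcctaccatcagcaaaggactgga
C1qb, GRCr8, chr5:154407828-154407947, minus strand: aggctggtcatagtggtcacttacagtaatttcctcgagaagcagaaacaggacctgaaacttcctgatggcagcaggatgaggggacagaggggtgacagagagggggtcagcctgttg
CATAAAA, a motif chosen after the sequences had been read, began at position -43 in Cfd and -45 in C3, counted from the annotated start, and these letters were in neither C1q window. It was in 4.65% of the 33469 windows of 300 bases in the table. TTGCNNAA began at -104 in C3 and was in 10.6% of all windows. GGGCGG, the GC box, began further upstream at -162 in Cfd and -151 in C1qb, on the opposite strand, and was in 33.1% of windows. One form of the NF-kappaB motif was in none of the 4 and in 1.53% of all windows. The motifs did not overlap. These matches describe letters in a window and do not show that a factor binds there.

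C1q is built from equal numbers of A, B and C chains, and the 3 chain genes lie side by side on chromosome 5 from 159008942 to 159026600 in the coordinates of the deposited table, within 17659 bases. C1qa was at 181 in A1, 72.3 in A6 and 275 FPKM in A12 with digitoxin, and at 236 in B5, 128 in B9 and 435 FPKM in B14 without it. C1qb was at 171, 47.2 and 211 FPKM in A1, A6 and A12, and at 197, 110.4 and 359 FPKM in B5, B9 and B14. C1qc was at 166, 57.1 and 191 FPKM in the treated tumors and at 221, 104 and 355 FPKM in the controls, in the same order. For all 3 chains B14 was the highest and A6 the lowest library, and the groups overlapped, with means of C1qa of 176 ± 101 FPKM with digitoxin and 266 ± 156 FPKM in controls (SD, n = 3 each). The levels spread 6.02-fold for C1qa, 7.61-fold for C1qb and 6.22-fold for C1qc from the lowest to the highest tumor. Between chains the proportions were much steadier, since the ratio of C1qb to C1qa ran only from 0.653 in A6 to 0.940 in A1 and that of C1qc to C1qa from 0.696 in A12 to 0.937 in B5.

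The C1q genes were measured beside 10 macrophage markers, all of them in the table. Their summed level was 345 to 959 FPKM with digitoxin and 566 to 714 FPKM in controls, was lowest in A12 and B14, and none of the 10 was listed at 0 in every library. That sum is mostly Aif1 and Cd68, which were highest in A6 at 511 and 270.1 FPKM and lowest in A12 at 106 and 85.6 FPKM, and Csf1r and Mrc1 were also lowest in A12, at 14.8 and 9.52 FPKM. Cd14 and Msr1, like C1q, were lowest in A6 at 42.1 and 7.14 FPKM and highest in B14 at 125.5 and 46.2 FPKM. In bulk tissue fewer macrophages and less RNA per macrophage cannot be told apart. The 8 fibroblast markers summed to 2882 FPKM in A12 and 4039 FPKM in B14 against 215 to 839 FPKM elsewhere, with Col1a2 listed at 0 throughout, so they were high where C1qa was highest. Cd163, a hemoglobin scavenger receptor of resident macrophages that was picked after its values were seen, was at 0.489 in A6, 0.670 in B9, 1.03 in A1, 2.64 in B5, 5.41 in A12 and 10.6 FPKM in B14, which is the order of C1qa. Marco, a scavenger receptor of alveolar macrophages, was instead highest in A6 at 12.7 FPKM and lowest in B14 at 0.642 FPKM. The part of macrophage and fibroblast content in the C1q levels was not tested.

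**Figure D2:**
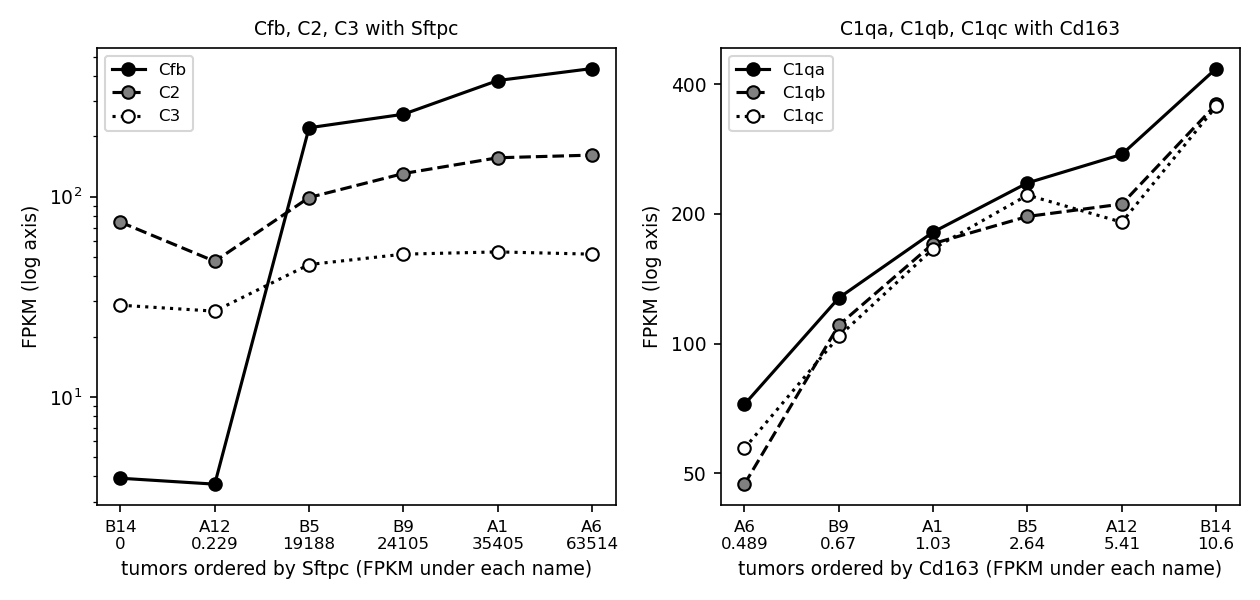
FPKM (log axis) of complement mRNAs with the 6 tumors placed in order of a marker, whose FPKM stands under each name. On the left Cfb is at 3.92 FPKM in B14 and 3.66 FPKM in A12 and then rises in the order of Sftpc, 1 of 4 alveolar markers among 8 that give this order, from B5 at 221 FPKM to A6 at 436 FPKM, and on the right C1qa rises with each step of Cd163, a marker picked from 10 after its values were seen, from 72.3 to 435 FPKM, whereas Cd68, Csf1r, Mrc1 and Aif1 were lowest in A12 and B14.

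C1r and C1s, the proteases of the C1 complex, are neighbours on chromosome 4 and spread less than C1q. C1s was at 43.7 in A1, 26.7 in A6 and 21.3 FPKM in A12, and at 38.6 in B5, 28.6 in B9 and 34.4 FPKM in B14. These values spread 2.05-fold and the groups overlapped. C1r was at 62.1, 42.7 and 37.8 FPKM in A1, A6 and A12 and at 49.0, 46.3 and 67.2 FPKM in B5, B9 and B14. The ratio of C1r to C1s stayed between 1.27 in B5 and 1.95 in B14. The balance of recognition to protease mRNA shifted, since the ratio of C1qa to C1s was 12.9 in A12 and 12.6 in B14 against 2.71 in A6, 4.16 in A1, 4.46 in B9 and 6.11 in B5.

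Cfb and C2 encode the homologous proteases of the alternative and classical C3 convertases and lie 265 bases apart on chromosome 20, Cfb from 6616005 to 6621872 and C2 from 6622138 to 6641139. Cfb was at 379.9 in A1, 436 in A6 and 3.66 FPKM in A12, and at 221 in B5, 258 in B9 and 3.92 FPKM in B14. The groups overlapped, with means of 273 ± 235 FPKM and 161 ± 137 FPKM (SD, n = 3 each). The mean of the 4 tumors with surfactant mRNA was 324 FPKM against 3.79 FPKM in A12 and B14, a ratio of 85.3, and on the FPKM + 1 scale 0.409% of the rows tested had a higher ratio. Among those 4 tumors the order of Cfb was that of 4 of the 8 alveolar markers (Sftpc, Sftpb, Ager and Napsa) and not of Sftpa1, Sftpd, Slc34a2 or Lamp3, of which Lamp3 was lowest in A6 at 149 FPKM. C2 was at 156, 161 and 47.5 FPKM in A1, A6 and A12 and at 98.9, 130.4 and 74.6 FPKM in B5, B9 and B14. It had the same 4 tumors high, but with a ratio of only 2.24, so that the ratio of Cfb to C2 was between 1.98 and 2.71 in those 4 tumors and 0.0771 and 0.0526 in A12 and B14. In A12 and B14, where Cfb was low, 7 of the 8 alveolar markers were under 1 FPKM and Napsa was at 16.4 and 24.2 FPKM, and the part of lung tissue in these levels was not tested.

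C3, the component at which the pathways meet, was at 52.9 in A1, 51.6 in A6 and 26.8 FPKM in A12, and at 45.8 in B5, 51.6 in B9 and 28.7 FPKM in B14. The 4 tumors with surfactant mRNA were all above A12 and B14, with a ratio of 1.82, and ran from 45.8 to 52.9 FPKM. The ratio of Cfb to C3 was between 4.82 in B5 and 8.45 in A6 among these 4, but 0.137 in each of A12 and B14. Of 8 markers of liver, a rich source of C3, 7 (Alb, Apoa1, Ttr, Fgb, Apoh, Tat and Cyp3a18) were under 1 FPKM in every library, and Serpina1 ran from 3.64 to 12.1 FPKM.

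Cfd, the protease that starts the alternative convertase, followed neither Cfb nor C1q. It was at 64.7 in A1, 131 in A6 and 69.6 FPKM in A12, and at 59.5 in B5, 34.3 in B9 and 44.3 FPKM in B14. All 3 digitoxin-treated tumors were above all 3 controls, with means of 88.5 ± 37.1 FPKM (SD, n = 3) and 46.0 ± 12.7 FPKM (SD, n = 3), but the lowest treated tumor, A1, was close to the highest control, B5, while A6 stood far above the rest. A12 and B14 did not stand apart for Cfd, since they lay between A6 and B9. Of the 7 adipocyte markers in the table, Lep was listed at 0 and Plin1 and Retn were under 1 FPKM in every library, and Adipoq, at 0.0416 FPKM in A1 and 0.0708 FPKM in A6, reached at most 2.63 FPKM, in A12. Lipe, a lipase of fat and other tissues, was highest in A6 at 24.0 FPKM and lowest in B14 at 3.96 FPKM, and Cidec, a lipid droplet protein, was also highest in A6 at 4.43 FPKM against 0.174 to 2.15 FPKM elsewhere. The summed level of the adipocyte list, which is nearly all Fabp4, was 344 to 2043 FPKM with digitoxin and 950.5 to 2028 FPKM in controls and was lowest in A6. Fabp4 is also made by macrophages and endothelium, and the part of fat cells in the Cfd levels was not tested.

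C5ar1, the receptor through which C5a draws and activates neutrophils and macrophages, was at 75.1 in A1, 75.8 in A6 and 23.1 FPKM in A12, and at 72.8 in B5, 62.2 in B9 and 38.5 FPKM in B14. It shared with C2 and C3 that A12 was the lowest and B14 the next. Its ratio to C3 ran only from 0.862 to 1.59. The 8 neutrophil markers, led by S100a8 and S100a9, summed to 1287 to 62400 FPKM with digitoxin and 3284 to 32664 FPKM in controls and were lowest in A12 and B14 as well, with Mpo under 1 FPKM throughout. S100a8 and S100a9 make up nearly all of that sum, and Cxcr2 was instead lowest in A6, at 7.95 FPKM, against 8.95 in A12 and 12.7 FPKM in B14. Their part in the C5ar1 levels was not tested.

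The rows most like each member in log2(FPKM + 1) over the 6 tumors were listed by Pearson's r, as a description of 6 points of which A12 and B14 form a cluster of their own. For Cfd they were Dbndd2, Cox4i1 and Dapk3, with r from 0.990 to 0.992. For the mean of the C1q chains they were Zfp52, Ccl2 and Pdia3, with r from 0.986 to 0.990, and Ccl2, a monocyte chemoattractant, ran from 7.45 FPKM in A6 to 120.1 FPKM in B14. For C1s they were Htr2b, Tmem86a and Psmg1, with r from 0.938 to 0.986. For C2 they were Slco2b1, Anpep and Mustn1, for C3 they were Rhbdl3, Enpep and Pla2g2d, for Cfb they were Ces1d, Tmem98 and Slc39a2, and for C5ar1 they were Smim1, Plbd1 and Tmem176a, and r was at least 0.994 for these 12. In each of these 12 rows A12 and B14 were the lowest libraries.

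To contrast the classical, alternative and inhibitory genes, 50 complement genes were grouped by role, of which 46 were in the table and 36 had a mean of at least 1 FPKM. The mean log2(FPKM + 1) of the 8 classical genes was 5.97, 5.05 and 5.25 in A1, A6 and A12 and 5.74, 5.46 and 5.70 in B5, B9 and B14. The mean level on the same scale of the 3 alternative genes, Cfb, Cfd and the stabilizer properdin (Cfp), was 6.97, 7.76 and 4.06 in A1, A6 and A12 and 6.72, 6.41 and 4.10 in B5, B9 and B14. That of the 11 inhibitor genes was 5.27, 5.23 and 3.29 in A1, A6 and A12 and 4.84, 5.18 and 3.65 in B5, B9 and B14. The classical level was thus below the alternative level in the 4 tumors with surfactant mRNA, by 0.951 to 2.71 on the log2 scale, and above it by 1.19 in A12 and 1.59 in B14. The classical level exceeded the inhibitor level by 1.96 in A12 and 2.04 in B14, and the difference ran from -0.18 to 0.90 in the other 4. Digitoxin-treated and control tumors overlapped in both differences. Besides Cfb, the alternative level includes Cfp, which was at 77.2, 175 and 13.2 FPKM in A1, A6 and A12 and at 86.6, 66.3 and 21.7 FPKM in B5, B9 and B14.

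**Figure D3:**
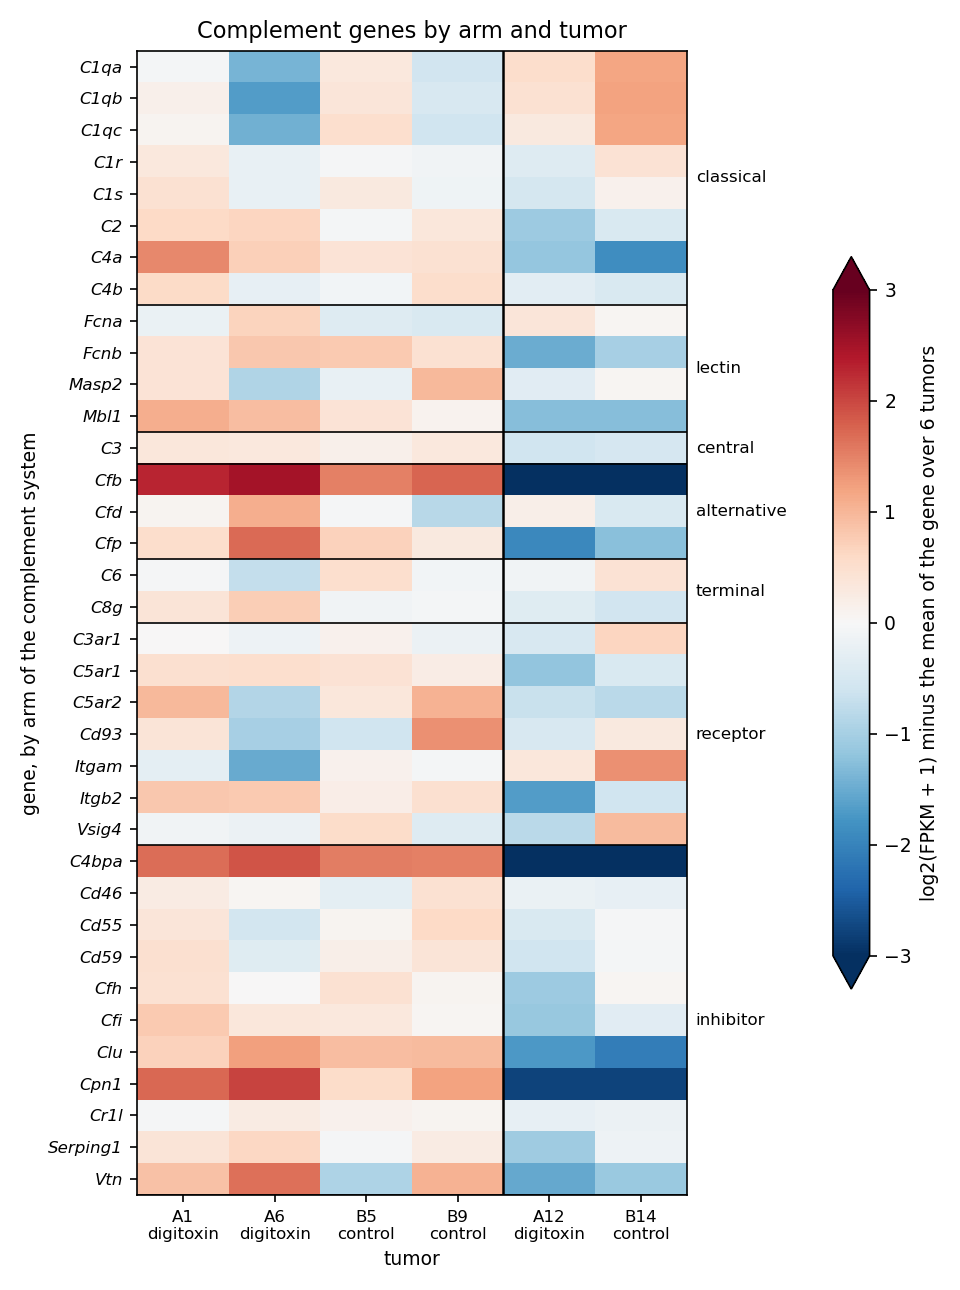
The 36 tested complement genes by role (rows) in the 6 tumors (columns), colored by log2(FPKM + 1) minus the mean of the gene over the 6 tumors, with colors capped at 3 either way. A12 and B14, on the right of the vertical line, are low for Cfb, C4bpa, Cpn1, Clu and Cfp and high for the C1q genes and Itgam.

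Among the inhibitors, 7 of 11 had A12 and B14 below all other tumors and 4 overlapped, against 29.3% of all rows tested that were higher in the 4 tumors. C4bpa, the main chain of the fluid-phase C4b-binding protein, was at 31.8 in A1, 36.6 in A6, 28.6 in B5 and 28.4 FPKM in B9, at 0.0761 FPKM in B14, and listed at 0 in A12. Cpn1, the carboxypeptidase that blunts C3a and C5a, was at 21.6, 26.9, 8.97 and 14.8 FPKM in A1, A6, B5 and B9 and listed at 0 in both others. Clusterin (Clu), an inhibitor of the membrane attack complex, was at 319.8, 466, 377 and 383 FPKM in the same 4 tumors and at 59.0 in A12 and 45.9 FPKM in B14. Inhibitors on cell surfaces spread less. Cd59, which blocks the membrane attack complex, was at 502, 280.3 and 239.7 FPKM in A1, A6 and A12 and 410.3, 472 and 345 FPKM in B5, B9 and B14, and Cr1l, the rodent C3 regulator Crry, ran from 50.2 to 70.3 FPKM. Serping1, the C1 inhibitor, was at 86.8, 103.6 and 31.4 FPKM in A1, A6 and A12 and 64.9, 79.0 and 60.0 FPKM in B5, B9 and B14, so its ratio to C1s ran from 1.47 in A12 to 3.89 in A6.

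The terminal and lectin arms were sparse. Of 7 terminal genes, C6 and C8g were tested, C9 was under 1 FPKM, C8a and C8b were listed at 0 in every library, and C5 and C7 were not analysed here. Of 8 lectin pathway genes, Mbl1, Masp2, Fcnb and Fcna, read under its older symbol Fcn1, were tested, Masp1 and Colec10 were under 1 FPKM, Mbl2 was listed at 0 throughout and Colec11 was not analysed here. C4a and C4b are near-identical copies whose loci overlap in the table, so their levels of 0.551 to 14.4 FPKM and 2.29 to 5.76 FPKM are uncertain. Of the receptors, Itgam, the alpha chain of complement receptor 3, was high in A12 and B14 at 14.4 and 30.6 FPKM against 3.23 to 12.3 FPKM elsewhere, whereas its beta chain Itgb2 was low there at 19.4 and 42.4 FPKM against 74.1 to 113 FPKM.

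To ask whether digitoxin-treated and control tumors differed, all 10749 rows were fitted with limma on log2(FPKM + 1), a scale that understates changes of low mRNAs. At a Benjamini-Hochberg adjusted p under 0.05 there were 0 rows, or 0.00%, and hence 0 of the 36 complement genes. At an unadjusted p under 0.05 there were 36 rows, or 0.335%, and 1 of the 36 complement genes, Cfd. Of these rows 7 (0.0651%) were higher and 29 (0.270%) lower with digitoxin. The complement members were chosen with results of this contrast known, so their fold changes are a description. The log2 fold change of Cfd was 0.89 with a standard error of 0.36, and it was 1.08 when the libraries were rescaled by the median of ratios, which moved the median of all rows from -0.16 to 0.0161. Cfd ran from 0.57 (without A6) to 1.09 (without B5) with each tumor left out in turn, and without A6, B9 or B14 its unadjusted p was no longer under 0.05. The same held with eBayes without a trend and without A12 and B14 together, where the log2 fold change was 1.01 with a standard error of 0.43. Cfd was the single complement gene whose groups did not overlap, against 4.16% of all rows, 0.902% higher and 3.26% lower with digitoxin.

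The log2 fold changes of C1qa, C1qb and C1qc were -0.62, -0.73 and -0.72, with standard errors of 0.63, 0.68 and 0.62. Leaving out 1 tumor moved them widely, to -0.0783, -0.0662 and -0.18 without A6 and -0.18, -0.30 and -0.31 without B14, and to -1.06, -1.15 and -1.19 without B9 and -1.03, -1.13 and -1.04 without A12. In the same-numbered pairs each C1q chain was lower with digitoxin in 3 of 3, with ratios of C1qa of 0.769 for A1 to B5, 0.566 for A6 to B9 and 0.632 for A12 to B14, against 22.4% of all rows lower in 3 of 3 pairs. Cfd was higher in 3 of 3, with ratios of 1.09, 3.83 and 1.57, against 9.68% of all rows. No label names a batch shared by a pair. A1 was above B9 for each C1q chain, and A1 with B9 and A6 with B5 were at least as alike over all rows as A1 with B5 and A6 with B9, so the 3 of 3 and the values with the block depend on the match of numbers. With the replicate number as a block, the standard errors of the 3 chains became 0.22, 0.26 and 0.23, and 5 of the 36 complement genes (C1qa, C1qb, C1qc, Itgam and Cfd) had an unadjusted p under 0.05, as had 446 of all rows, or 4.15%. At an adjusted p under 0.05 there were 0 rows with the block as well, where limma gave no adjusted p under 0.638.

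For the other members the difference was small beside its error. The log2 fold changes were -0.20 for C1s, 0.11 for C2, 0.0368 for C3, 0.49 for Cfb and -0.13 for C5ar1, with standard errors of 0.32, 0.52, 0.37, 2.28 and 0.52. Without A12 and B14 the standard error of Cfb was 0.26 and its log2 fold change 0.77. Then Cfb and Cpn1 had an unadjusted p under 0.05, as did 11.0% of all rows, and A1 and A6 lay above B5 and B9 for C2, Cfb, Cfd, C3 and C5ar1, although by little for C3. Over all rows, 57.2% had such a separation between these 4 tumors, and in 17.2% A1 and A6 were the higher pair. The summed alveolar markers were separated in the same way, at 50274 and 82627 FPKM in A1 and A6 against 27099 and 35384 FPKM in B5 and B9. Slc34a2 and Lamp3, which are in that sum, overlapped. The part of lung tissue in these differences was not tested. Between A12 and B14 alone, however, Cfb and C3 were at ratios of 0.934 and C2 at 0.637, while Cfd was at 1.57, so of the 9 members only Cfd was higher with digitoxin in both sets of tumors. The share of all rows higher in both sets was not counted, so this does not set Cfd apart from other genes. Leaving out A1, A6 or B14 each turned the log2 fold changes of C2, C3 and Cfb below 0, to as low as -1.38 for Cfb without B14.

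**Figure D4:**
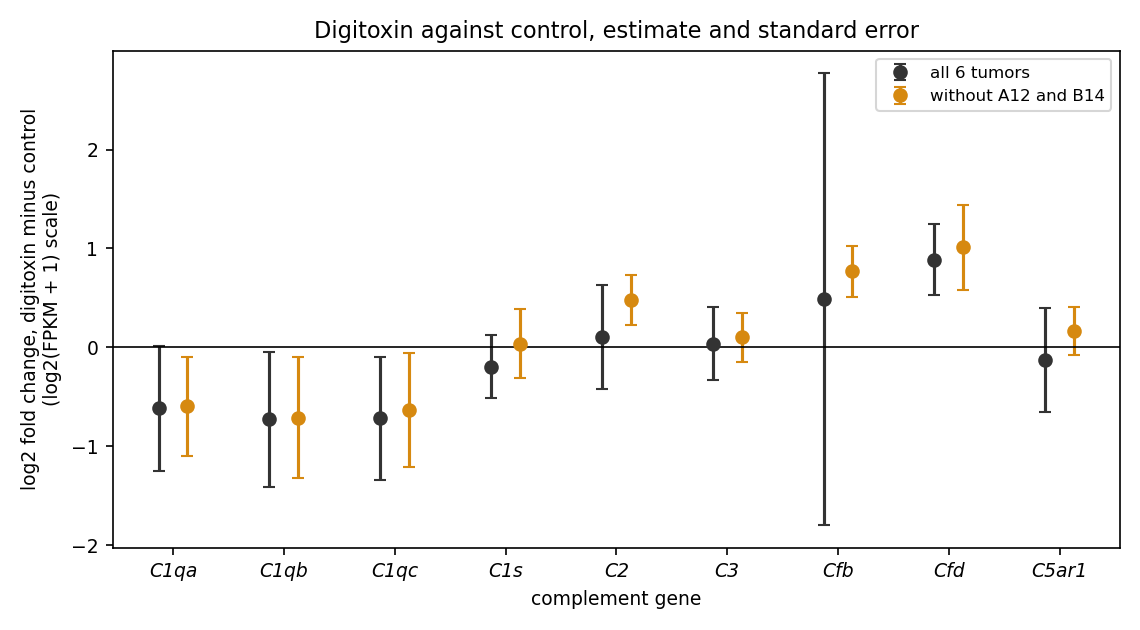
Log2 fold change (digitoxin minus control, log2(FPKM + 1) scale) of the 9 complement mRNAs with bars of 1 standard error from limma, for all 6 tumors and without A12 and B14. The C1q genes lie below 0 and Cfd above 0 in both, and the error of Cfb shrinks from 2.28 to 0.26.

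By role, the median log2 fold change was -0.20 for the classical genes (3 higher, 5 lower), 0.49 for the 3 alternative genes (all higher) and -0.0144 for the 11 inhibitors (5 higher, 6 lower), beside -0.16 for all rows tested, of which 64.9% were lower. The mean log2(FPKM + 1) of the 7 tested receptors was lower with digitoxin for each, with a median log2 fold change of -0.40 that includes Itgam at -0.97 (standard error 0.62) and Vsig4, a macrophage receptor for C3b, at -0.73 (standard error 0.44), although in mean FPKM C5ar1 and Itgb2 were at ratios of 1.00 and 1.18. Both had a log2 fold change above 0 with median-of-ratios scaling, and without A12 and B14 they were at 0.16 and 0.45. The alternative median was below 0 without A1, A6 or B14, and the inhibitor median above 0 with median-of-ratios scaling, without A12, B5 or B9, and without A12 and B14 together.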

How the data were processed

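Messenger RNA libraries of 6 PAIII tumors were analysed, 3 from digitoxin-treated and 3 from control rats. The authors deposited 1 table of FPKM, made from single reads with Bowtie 2, TopHat 2 and Cufflinks 2. The submitters' processing notes list the build hg19 although the samples are rat. No rat build was given in the sources used here, so coordinates are those of the table, and no scaling between tumors is stated.

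Where a symbol had several rows, the one of highest mean was taken, which no member needed. The 10749 rows averaging 1 FPKM or more were fitted with limma 3.58.1 (lmFit, eBayes with a trend; R 4.3.3) on log2(FPKM + 1), two-sided, with Benjamini-Hochberg adjustment. The study compared groups with Cuffdiff, which was not repeated here. FPKM keep no counts, so intervals for counting error are not given. Low values gave a rough depth of 0.503 for A12 and 0.737 for B14 relative to B9, from 1.26% and 1.37% of low rows at the most frequent ratio. Each library is the tumor of 1 rat, and p-values cover the spread between these rats.

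Deviations from the group means correlated across rows at r = 0.426, 0.606 and 0.869 for replicates 1, 2 and 3, and same-numbered tumors were taken as pairs. A1 was closer to B9 (r = 0.644) than to B5, and A6 was slightly closer to B5 (r = 0.612) than to B9. The data thus single out only A12 with B14 as a pair, and no label names a shared batch.

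Named genes are the 9 members, the 50 complement genes grouped by role, and the 3 rows most like each member. Members and lists were chosen with earlier results of these data known. Fcna, C5ar2 and the macrophage marker Adgre1 were matched by an older symbol. The alternatives were each tumor left out, A12 and B14 left out together, the replicate block, scaling by the median of ratios, a pseudocount of 0.1, all rows unfiltered, eBayes with no trend, and ratios of group means. After the data were seen, A12 against B14 alone was added. Some markers of the tissue are not reported here. The fit was tested on simulated data with independent libraries, no cluster like A12 and B14, and shifts far larger than those of the members. That test does not show how well the fit finds differences of the size seen here. Python 3.11.15, pandas 2.3.3 and matplotlib 3.10.9 were used for the remaining values.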

Additional observations from a re-analysis of the deposited data

How the results depend on the processing

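The depth of the libraries is unknown, and with 3 tumors in each group, of which 1 has surfactant mRNA near 0, small differences could not be detected. Larger ones could be missed as well, since Cfd, at a ratio of means of 1.92, had an adjusted p of 0.926 in limma. Of the 10749 rows, 0 passed the adjusted threshold in limma, and 0 to 2 with each tumor left out; without A12 and B14 there were also 2, Mir3561 and Mir3567, both listed at 0 in A1 and A6. The 36 rows at an unadjusted p under 0.05 became 133 with no filter, 446 with the replicate block, 1183 without A12 and B14, and 13 to 2114 with 1 tumor left out (13 without A6 or B9, 19 without B5 and 2114 without A12). The complement genes at an unadjusted p under 0.05, 1 in the fit reported, were 0 without a trend, 5 with the replicate block, 2 without A12 and B14, and 0 to 1 with 1 tumor left out, where the 1 was Vsig4 without B9 and Cfd without A1, A12 or B5. The adjusted counts of complement genes were 0 under every alternative, the block included. With median-of-ratios scaling the median of the inhibitors became 0.17 and C5ar1 0.0644. Without A12 and B14 the inhibitor median was 0.0751, C1s 0.0371 and C5ar1 0.16. Between A12 and B14 alone C2 was -0.64, C3 -0.0956 and Cfb -0.0777. The ratio of group means of C5ar1 was 0.00377 on the log2 scale. With 1 tumor left out, the log2 fold changes ran from -0.48 to 0.0208 for C1s, -0.19 to 0.68 for C2, -0.21 to 0.35 for C3, -1.38 to 2.64 for Cfb and -0.41 to 0.43 for C5ar1, and the medians from -0.62 to 1.198 for alternative and -0.44 to 0.48 for inhibitor genes. Cfd and the 3 C1q genes kept their direction in all 14 alternatives each. Some of these could not change it. With no filter, without a trend and with the replicate block, Cfd stayed at 0.89 and C1qa at -0.62, since only the errors change. Summing the rows of a repeated symbol was not run because no member is repeated.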
